A study of Schizosaccharomyces pombe with 4 samples.

Results

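The early meiotic programme of normal fission yeast (Schizosaccharomyces pombe) diploids was read from 2 of the 4 arrays of the series, wild type at 3 h and wild type at 1.5 h after nitrogen was withdrawn. Both were chosen by their genotype and time labels alone, and every gene that could be named was included, 2899 genes named from 4999 probe sets. The wild-type diploid was h+/h- for mating type, carried ade6-210/216, and was heterozygous for his5-303 and leu1-32 (each over +). The deletion diploid, set beside it where stated and sampled at 3 h and 1.5 h too, had the same genotype at those loci and was also homozygous for ura4-D18 and for pht1D::ura4+, a replacement of the gene of histone variant H2A.Z. The series asks about H2A.Z in the start of meiotic recombination. Per the labels, poly(A) RNA was purified from DNase-treated total RNA and labelled as biotin-cRNA with the Affymetrix One-Cycle kit. Each group holds 1 array, the labels do not say whether the times of a genotype share a culture, and time, culture and array cannot be told apart.

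In fission yeast, loss of nitrogen in a cell with both mating types switches on Ste11, a transcription factor for mating and meiosis, and Mei2, an RNA-binding protein that starts meiosis. Premeiotic DNA replication is followed by recombination while dynein swings the nucleus back and forth in the horsetail stage, and then by a pair of divisions and by spore formation under the forkhead factor Mei4. During growth the protein Mmi1 binds many meiotic transcripts and sends them to be degraded, and Mei2 takes Mmi1 out of action when meiosis begins.

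All levels below are RMA log2 values of 1 probe set on 1 array, and all differences are the log2 value at 3 h minus that at 1.5 h, so 1 log2 unit is 2-fold. The number of arrays limits the precision: a single difference has no replicate check and no p-value, and higher and lower describe these arrays. A gene entered the counts when its higher array lay above the 25th percentile of all probe sets of that array, 10.13 at 3 h and 10.12 at 1.5 h. This floor passed 2330 genes and left out 569, and a gene that starts below it can pass only by being high at 3 h. The spread of a difference between 2 arrays, taken from the gap between the wild-type and the deletion time differences, was 0.227 log2 units. This value also holds any true difference between the genotypes over time, so it is not a measure of array noise alone. RMA scales arrays towards a common distribution, and a level therefore stands against the rest of the same array and holds no information on total mRNA. The medians of the deposited values were close but not equal, 11.24 at 3 h and 11.27 at 1.5 h. Which arrays were scaled together is not stated in the labels. Each value is also a mean over a culture, in which more cells with a transcript and more of it per cell cannot be told apart.

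Most transcripts held their level between the times. Of the 2330 genes, 89.5% lay within 0.5 log2 units of 0, and the median difference was -0.02. The arrays had a Pearson correlation of 0.931 across genes, which are not independent replicates. By 2-fold or more, 69 genes (2.96%) were higher at 3 h and 9 genes (0.386%) were lower. The asymmetry was wider at larger differences, with 38 genes higher and 1 lower by at least 3-fold, and 29 higher and 0 lower by at least 4-fold. Of the 69 higher genes, 34 belonged to lists of meiosis or sporulation, 14 to lists of mating, 11 to other lists and 10 to none. How many of all 2330 genes fall in each class was not counted, so this split describes the 69 genes only. Of the 34 meiosis and sporulation genes, 31 were below the floor at 1.5 h, against 4 of the 14 mating genes. These genes were counted for being high at 3 h, so the shares describe them and not the whole lists, in which 6 of 14 fusion genes and 16 of 32 strand exchange genes were below the floor at 1.5 h.

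**Figure D1:**
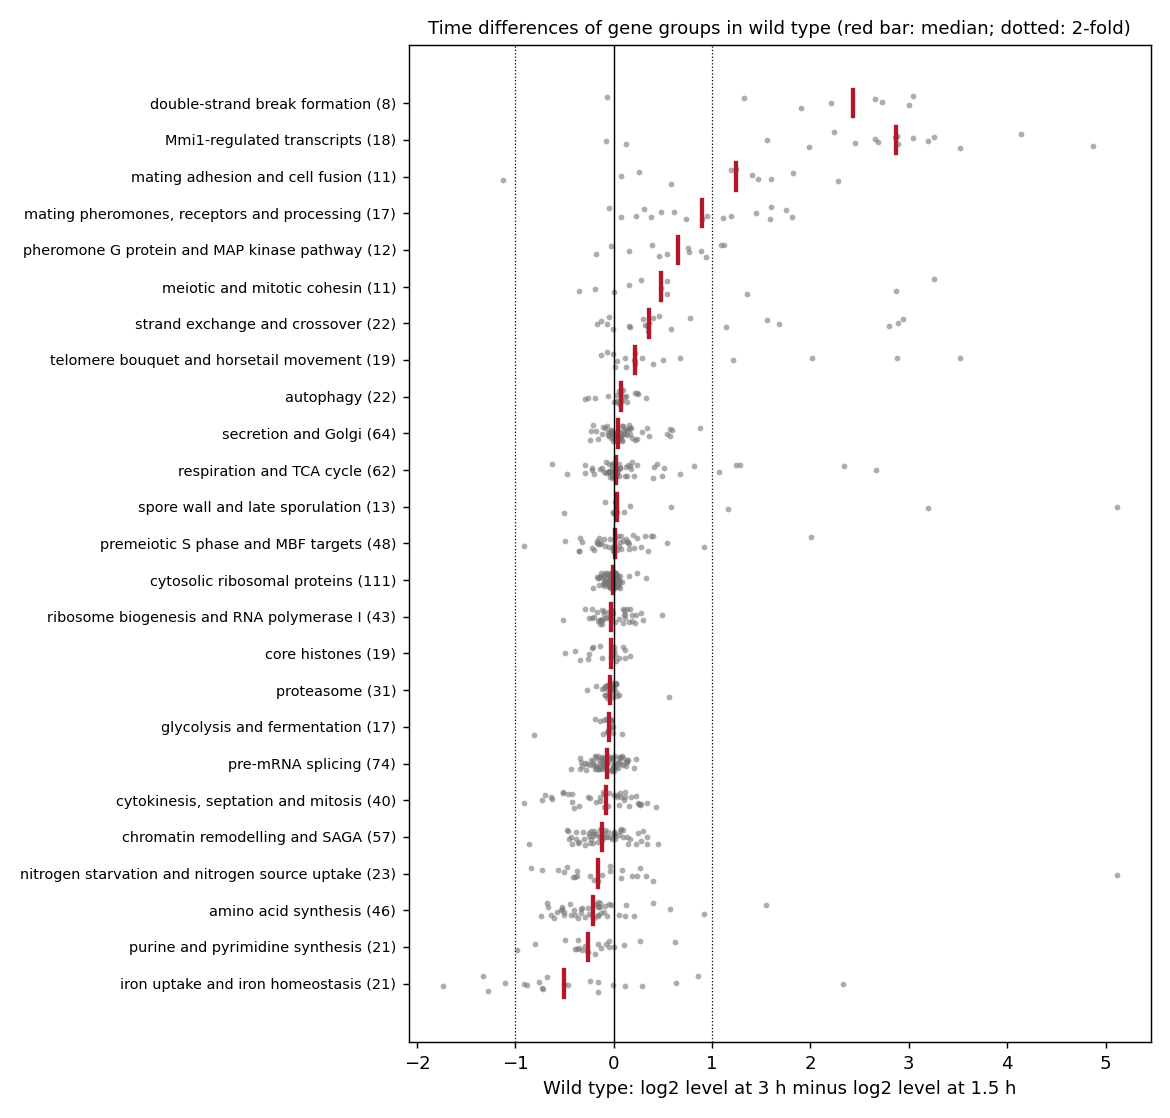
Wild-type difference (3 h minus 1.5 h, log2 units, horizontal axis) of the genes above the floor in a selection of the lists (rows, number of genes in brackets), with 1 point per gene, a red bar at the median and dotted lines at 2-fold. Break formation and Mmi1-regulated transcripts have the highest medians plotted (2.43 and 2.87). Both are raised by the floor, which passes genes low at 1.5 h only if they are high at 3 h. Over all measured genes of these lists the medians are 1.53 and 2.45. The iron list has the lowest median (-0.50), and ribosomal proteins lie within 0.33 log2 units of 0.

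Among the regulators of meiotic entry, ste11 and mei2 were already abundant at 1.5 h, while 5 of the 37 measured were below the floor then. The ste11 transcript read 13.46 at 3 h and 12.50 at 1.5 h, a difference of 0.97. The mei2 transcript read 14.05 at 3 h and 13.35 at 1.5 h, a difference of 0.70. Both lay far above the floor at both times and differed by under 2-fold. The 33 entry regulators that passed the floor had a median of -0.01. By 2-fold or more, none was lower and 2 were higher (6.06%, against 2.96% of all genes). The first was rep1, an activator of premeiotic replication genes, at 11.27 at 3 h and 9.26 at 1.5 h. The other was pat1, the kinase that holds meiosis back by phosphorylating Mei2 and Ste11, at 12.77 at 3 h and 11.58 at 1.5 h. The mei3 transcript, which encodes the inhibitor of Pat1, read 9.01 at 3 h and 7.69 at 1.5 h, below the floor at both times. Of the 9 genes of the Mmi1 elimination machinery above the floor, 0 were 2-fold higher or lower and the median was -0.02. With so few genes, 0 is near the shares over all genes, 2.96% higher and 0.386% lower. The mmi1 probe set itself read 9.31 at 3 h and 9.27 at 1.5 h, below the floor on both arrays.

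The genes of pheromone signalling and cell fusion were higher at 3 h as a group, in both mating types' sets. Of the 17 genes for pheromones, their receptors and their processing, 16 were higher at 3 h and 7 of them by at least 2-fold, with a median of 0.90. Of all genes, 45.5% were higher by any amount and 2.96% by 2-fold or more. The 3 markers of P cells averaged 12.60 at 3 h and 10.93 at 1.5 h, and the 6 markers of M cells averaged 13.90 at 3 h and 12.86 at 1.5 h. Both sets were thus measured, as the h+/h- label calls for.

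On the P side, map2, which encodes the P-factor pheromone, read 13.78 at 3 h and 11.97 at 1.5 h, a difference of 1.81. The M-factor receptor gene map3 read 11.04 at 3 h and 9.45 at 1.5 h, a difference of 1.59, and was below the floor at 1.5 h. On the M side, the M-factor genes mfm1, mfm2 and mfm3 read 14.46, 14.39 and 14.25 at 3 h, against 13.72, 13.91 and 12.81 at 1.5 h. The sxa2 transcript, for the secreted carboxypeptidase that breaks down P-factor, read 13.00 at 3 h and 11.25 at 1.5 h, a difference of 1.75. The P-factor receptor gene mam2 differed by 0.95 and the M-factor exporter gene mam1 by 0.90, both under 2-fold.

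In the G protein and MAP kinase pathway, none of 12 genes was lower by 2-fold or more, and the median was 0.65. To that degree 2 were higher (16.7%, against 2.96% of all genes). They were ste6, for the Ras exchange factor of mating, at 12.93 at 3 h and 11.81 at 1.5 h, and rgs1, which damps the pheromone signal, at 14.02 at 3 h and 12.93 at 1.5 h. The MAP kinase gene spk1 read 13.73 at 3 h and 12.84 at 1.5 h, and the kinase gene byr2 upstream of it 10.57 at 3 h and 10.60 at 1.5 h. Over the list the differences ran from -0.18 to 1.12, with 10 genes higher and 2 lower.

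Among 11 adhesion and fusion genes that passed the floor, 7 were higher and 1 was lower by 2-fold or more. These shares were 63.6% and 9.09%, against 2.96% and 0.386% of all genes. The claudin-like fusion gene dni1 read 12.14 at 3 h and 9.85 at 1.5 h, a difference of 2.28. The nuclear fusion gene tht1 read 10.29 at 3 h and 8.47 at 1.5 h, at least 1.83 higher. The formin gene fus1, which builds the actin focus of fusing cells, read 11.43 at 3 h and 10.02 at 1.5 h, a difference of 1.41. The gene lower at 3 h was exg3, for a glucan hydrolase, at 11.29 at 3 h and 12.42 at 1.5 h. The plot of mating genes shows their levels on both arrays.

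**Figure D2:**
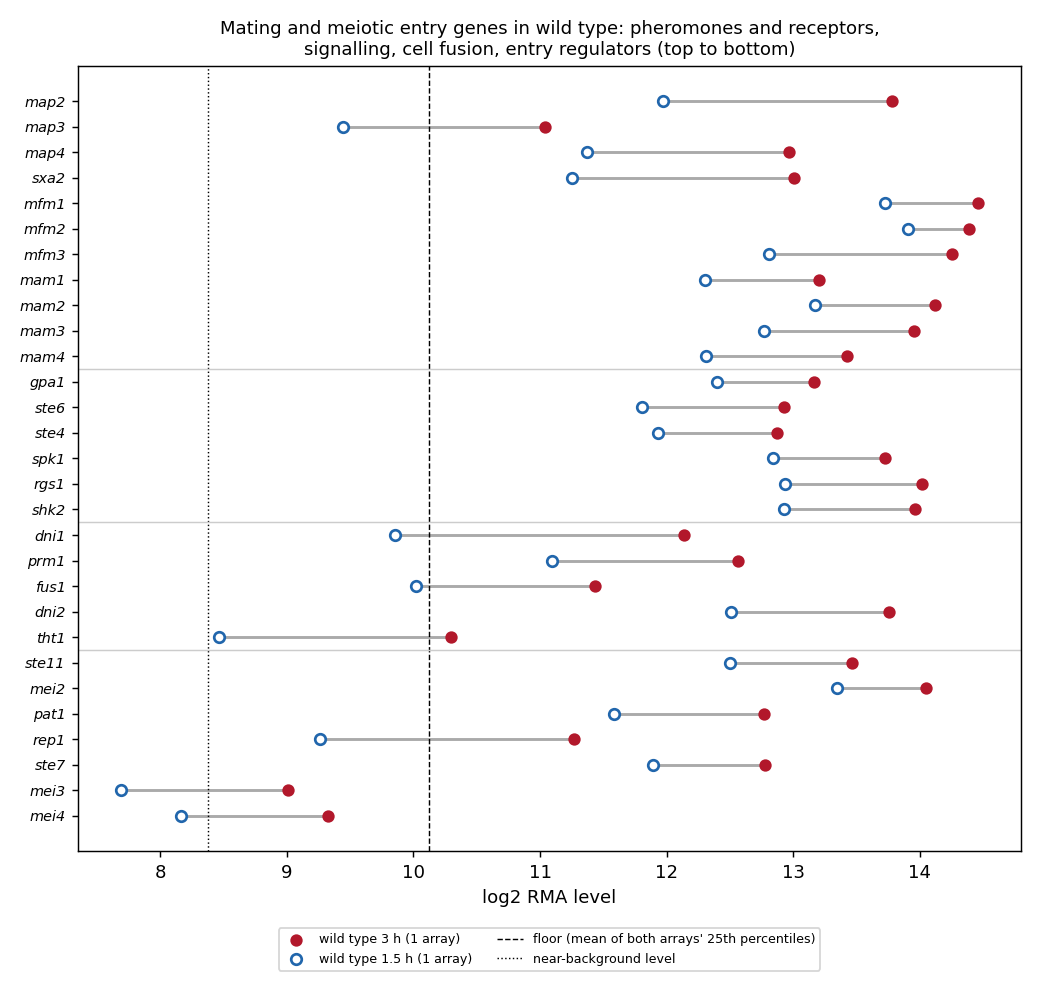
Log2 RMA levels (horizontal axis) of selected mating and meiotic entry genes (rows) in wild type at 3 h (filled) and at 1.5 h (open), 1 array per time, with the floor dashed and the low level of 8.37 dotted. All genes plotted lie higher at 3 h, and mei3 and mei4 lie below the floor at both times.

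The chromosome genes of meiotic prophase were 20 of the 69 genes higher by 2-fold or more. They were 13 of the 29 higher by 4-fold or more, and 4 of the 8 by 8-fold or more. They are the genes of the break machinery, the linear elements (the fission yeast relative of the synaptonemal complex), the meiotic cohesins, strand exchange and nuclear movement. The lists of break formation (with linear elements), cohesin, strand exchange and nuclear movement held 8, 11, 22 and 19 of the 2330 genes above the floor. Each of the 20 genes lay below the floor at 1.5 h and was counted only through its high level at 3 h. Where the 1.5 h value lay under 8.37, a level 1 log2 unit above what the pht1 probe set read on the deletion arrays, the difference is given as at least its size, and the order of such genes is not settled. The same holds for crs1, meu13, rec8, rti1 and tht1, whose 1.5 h values lay above that level by less than 0.227.

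Of the 13 measured genes of double-strand break formation, 12 were below the floor at 1.5 h and 5 were still below it at 3 h. All but rec14 were higher at 3 h, with a median of 1.53 over the 13 genes. The rec10 transcript, for the axis protein that recruits the break machinery, read 11.18 at 3 h and 8.17 at 1.5 h, at least 3.00 higher. The hop1 transcript, for a HORMA-domain axis protein, read 12.28 at 3 h and 9.24 at 1.5 h, a difference of 3.04. The mek1 transcript, for a meiotic checkpoint kinase, read 11.46 at 3 h and 8.80 at 1.5 h, a difference of 2.65. The break machinery itself was less uniform.

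The rec12 transcript, for the Spo11 relative that cuts DNA, read 9.81 at 3 h and 8.83 at 1.5 h, below the floor at both times. Its partner gene rec6 read 11.38 at 3 h and 10.05 at 1.5 h, a difference of 1.33. The rec14 transcript, which is also used in growth, read 11.10 at 3 h and 11.17 at 1.5 h. Of the 7 break machinery genes, 6 were higher at 3 h by any amount, all but rec14. Above the floor at 3 h or 1.5 h lay 3 of the 7: rec6, rec14 and rec15. The rec15 transcript read 10.52 at 3 h and 7.79 at 1.5 h, at least 2.73 higher and the largest difference of the 7.

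Of the 16 cohesin genes, 11 passed the floor and 3 were higher by 2-fold or more (27.3% of the 11, against 2.96% of all genes). The rec8 transcript, for the meiotic kleisin, read 11.70 at 3 h and 8.44 at 1.5 h, at least 3.26 higher. The rec11 transcript, for its arm partner, read 11.09 at 3 h and 8.21 at 1.5 h, at least 2.87 higher. The loader gene mis4 read 11.03 at 3 h and 9.67 at 1.5 h. In contrast, the mitotic kleisin gene rad21 read 11.02 at 3 h and 11.37 at 1.5 h, and psc3, which serves at the centromere, read 10.65 at 3 h and 10.84 at 1.5 h. The subunits shared by both complexes, psm1 and psm3, differed by 0.48 and 0.54.

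In strand exchange, 6 of 22 genes were higher by 2-fold or more (27.3%, against 2.96% of all genes), with a median of 0.36. They were dmc1 (the meiotic recombinase, 11.68 at 3 h and 8.73 at 1.5 h), meu13, rti1, sfr1, mcp7 and mus81. In the horsetail and bouquet list, 4 of 19 were at least 2-fold higher (21.1%), with a median of 0.21. The num1 transcript, for the cortical anchor of dynein, read 11.66 at 3 h and 8.14 at 1.5 h, at least 3.52 higher. The mcp6 transcript, for a spindle pole protein of the horsetail stage, read 11.02 at 3 h and 8.14 at 1.5 h, at least 2.88 higher. The dynein heavy chain gene dhc1 reached 10.06 at 3 h, just under the floor, against 8.09 at 1.5 h. Some genes that also work outside meiosis were level, such as taz1, a telomere protein, at 11.98 at 3 h and 11.94 at 1.5 h.

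**Figure D3:**
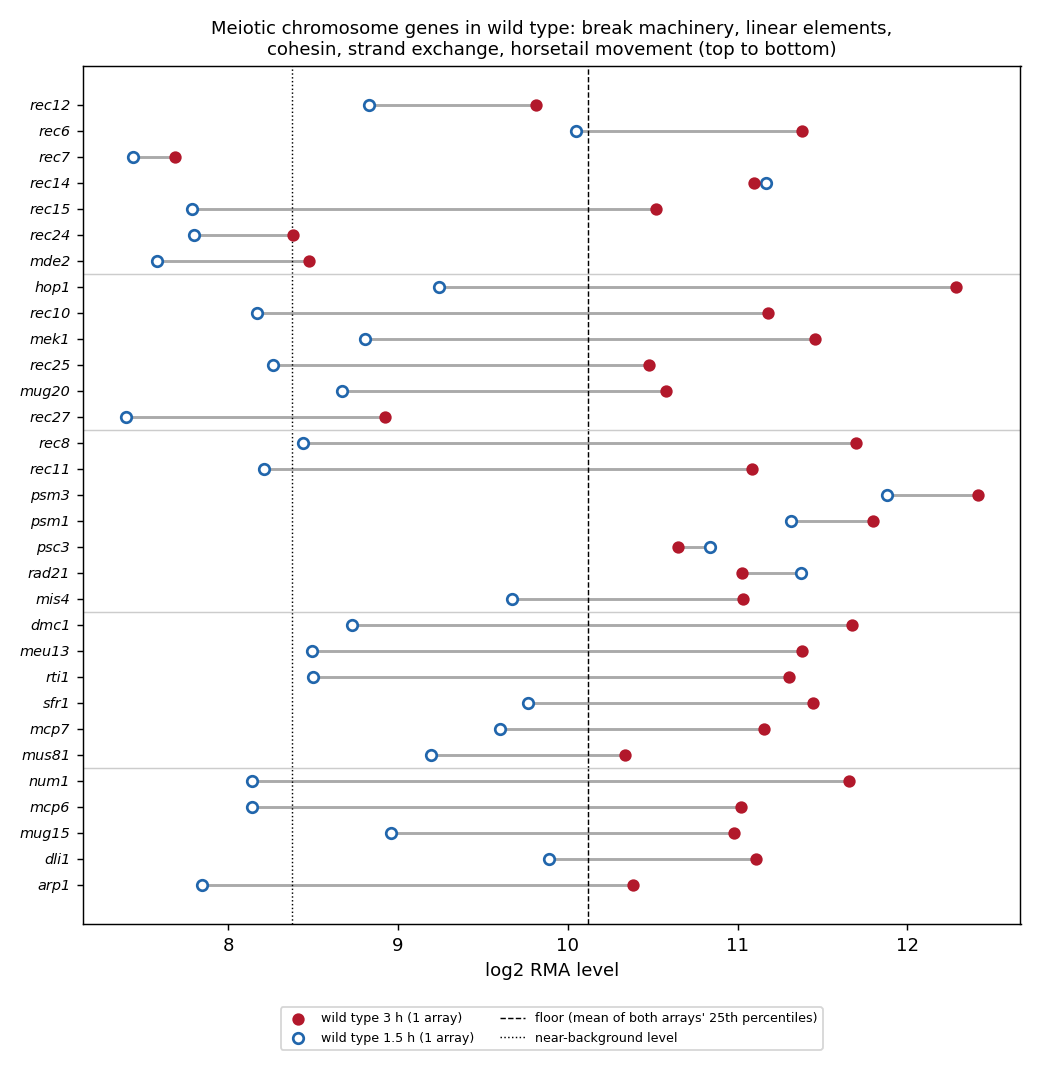
Log2 RMA levels (horizontal axis) of selected break, linear element, cohesin, strand exchange and horsetail genes (rows) in wild type at 3 h (filled) and at 1.5 h (open), 1 array per time, with the floor dashed and the low level of 8.37 dotted. Most lie below the floor at 1.5 h, while rec14, rad21 and psc3 lie above it at both times and are slightly lower at 3 h.

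Transcripts known to be removed by Mmi1 during growth overlapped with these genes. Of the 25 measured, 22 were below the floor at 1.5 h and 7 were still below it at 3 h. The 18 above the floor included 16 higher by 2-fold or more (88.9%, against 2.96% of all genes). None was lower to that degree, against 0.386% of all genes. Of the 16, 15 were below the floor at 1.5 h and were counted only through their high level at 3 h. The median of the 18 was 2.87, and the median over all 25 was 2.45. The spo5 transcript, for a meiotic RNA-binding protein, read 13.53 at 3 h and 8.65 at 1.5 h, 29.4-fold higher. The crs1 transcript, for a meiotic cyclin, read 12.52 at 3 h and 8.38 at 1.5 h, at least 4.14 higher. The mug14 transcript read 14.28 at 3 h and 11.40 at 1.5 h. This list was drawn up with results of these data known, so its count does not stand as independent evidence of its direction.

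Genes of the meiotic divisions and their regulators ranged widely. Of the 33 measured, 20 were below the floor at 3 h and 22 at 1.5 h, and the median of the 14 that passed the floor was 0.03. Its members spo5 and crs1, given above, were among the genes with the largest differences. The mei4 transcript, for the forkhead factor, read 9.32 at 3 h and 8.16 at 1.5 h. The spo6 and spo4 transcripts, for the 2 subunits of a kinase of the second division, read 7.68 and 7.40 at 3 h and 7.44 and 7.36 at 1.5 h. These 3 genes were below the floor at both times and were named after their values were seen.

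Spore wall genes were mixed. Of 13 that passed the floor, 3 (23.1%, against 2.96% of all genes) were higher by 2-fold or more. The median of the 13 was 0.03. The isp3 transcript, for a coat protein of the spore, read 13.11 at 3 h and 7.99 at 1.5 h, at least 5.11 higher and the largest difference of all named genes. The meu10 transcript, for spore wall assembly, read 11.12 at 3 h and 7.92 at 1.5 h, at least 3.19 higher. The metalloprotease gene mde10 read 12.38 at 3 h and 11.22 at 1.5 h. The glucan synthase gene bgs2 differed by 0.17, and agn2, a glucanase gene for release of spores, read 10.02 at 3 h and 10.52 at 1.5 h. The 4 genes listed as markers of mature spores averaged 11.79 at 3 h and 9.38 at 1.5 h, and their part in the other differences was not tested.

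The replication genes were spread much like all genes. Of 48 genes of premeiotic S phase and of MBF, the factor that switches on replication genes, 44 (91.7%) lay within 0.5 log2 units of 0, against 89.5% of all genes. Their median was 0.01, and 1, rep1, was at least 2-fold higher (2.08%, against 2.96%). The cdc22 transcript, for ribonucleotide reductase, read 13.27 at 3 h and 13.41 at 1.5 h. The cyclin gene cig2 differed by 0.92 and nrm1, which represses MBF, by 0.38. All 19 histone and histone chaperone genes above the floor lay within 0.5 log2 units, with a median of -0.03. The S phase histone gene hta2 read 13.86 at 3 h and 14.09 at 1.5 h.

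Genes of cell separation differed in both directions. The adg1 transcript read 9.76 at 3 h and 11.12 at 1.5 h, a difference of -1.36. The eng1 transcript, for the glucanase that splits the septum, read 8.65 at 3 h and 10.06 at 1.5 h, below the floor at both times, while adg2 read 12.84 at 3 h and 12.10 at 1.5 h. The markers of dividing cells averaged 10.36 at 3 h and 10.95 at 1.5 h. Of 40 genes of cytokinesis and mitosis above the floor, 0 were 2-fold higher or lower, with a median of -0.08. That count is near the shares over all genes, 2.96% higher and 0.386% lower.

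Genes of iron handling were found on both sides. In fission yeast, Fep1 represses uptake genes when iron is ample, and Php4 represses genes of iron-using proteins when iron is scarce. Of the 21 genes on the iron list, 16 were lower and 5 higher at 3 h, with a median of -0.50, against -0.02 over all genes. Over all genes, 54.5% were lower by any amount. The division by function below was drawn up after the values were seen, so its directions are a description and support nothing. All 10 genes for uptake proteins were lower at 3 h, with a median of -0.84. By at least 2-fold, 4 of them were lower (40%, against 0.386% of all genes). The smallest difference was that of str2, at -0.01, which turned to slightly above 0 under 3 other scalings.

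The ferric reductase gene frp2 read 8.84 at 3 h and 10.57 at 1.5 h, a difference of -1.74, the lowest of all named genes. The ferroxidase gene fio1 read 11.42 at 3 h and 12.70 at 1.5 h, a difference of -1.28, and the permease gene fip1, which works with it, read 12.68 at 3 h and 13.59 at 1.5 h, a difference of -0.91. The transporter gene str3 read 11.95 at 3 h and 13.28 at 1.5 h, a difference of -1.33. The sib2 transcript, for a step of ferrichrome synthesis, read 11.37 at 3 h and 12.48 at 1.5 h, a difference of -1.10. The repressor gene php4 read 10.79 at 3 h and 11.47 at 1.5 h, a difference of -0.67, and fep1 lay below the floor at both times, at 9.53 at 3 h and 8.91 at 1.5 h.

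A set of 17 genes for iron-using or iron-sulphur proteins was picked by hand after the values were seen. It does not hold all such genes, so its counts do not describe iron-using genes in general. Of the 17, 13 were higher at 3 h, 8 of them by 2-fold or more, and grx4, isu1, isa2 and nfs1 were lower. Over all genes, which were not picked in this way, 45.5% were higher by any amount and 2.96% by 2-fold or more. The median was 0.92. All 4 subunit genes of succinate dehydrogenase were higher. The iron-sulphur subunit gene sdh2 read 13.57 at 3 h and 11.23 at 1.5 h, 5.08-fold higher. The membrane subunit gene tim18 (older name sdh4) read 13.25 at 3 h and 10.58 at 1.5 h, 6.36-fold higher. The other two, sdh3 and sdh1, differed by 1.28 and 0.82. The isa1 transcript, for iron-sulphur cluster assembly, read 12.18 at 3 h and 9.84 at 1.5 h, 5.04-fold higher, while isa2 differed by -0.16.

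The other genes of that iron-using set at least 2-fold higher were glt1 (glutamate synthase), cyc1 (cytochrome c), cyt1 (cytochrome c1) and ctt1 (catalase). The glt1 transcript read 13.70 at 3 h and 12.15 at 1.5 h, a difference of 1.55. The pcl1 transcript, for vacuolar iron storage, read 13.02 at 3 h and 12.39 at 1.5 h, a difference of 0.63. Of the 62 genes of the respiration list above the floor, 53 lay within 0.5 log2 units (85.5%, against 89.5% of all genes). Its median was 0.03, and 5 genes were higher by 2-fold or more (8.06%, against 2.96%).

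**Figure D4:**
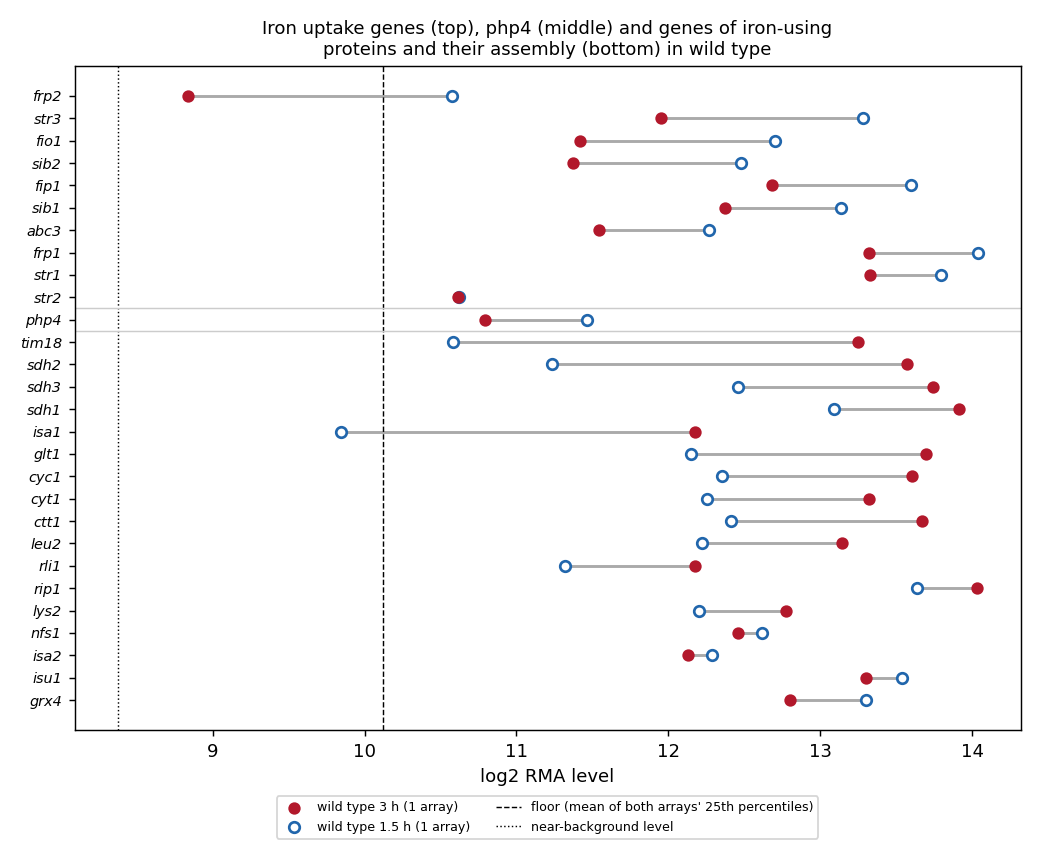
Log2 RMA levels (horizontal axis) of the 10 iron uptake genes, php4 and the 17 genes for iron-using proteins and their assembly (rows) in wild type at 3 h (filled) and at 1.5 h (open), 1 array per time, with the floor dashed and the low level of 8.37 dotted. The uptake genes lie lower at 3 h, str2 by a difference of only -0.01 that turned above 0 under 3 other scalings. Of the 17 iron-using genes, a set picked by hand after the values were seen, 13 lie higher.

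Genes of amino acid synthesis were mostly slightly lower at 3 h. Of 46 above the floor, 38 were lower and 8 higher, with a median of -0.21, while 54.5% of all genes were lower by any amount. The 3 highest were glt1 at 1.55, leu2 at 0.92 and lys2 at 0.58, all for iron-sulphur enzymes, and the lowest were lys1 at -0.74, met11 at -0.68 and trp3 at -0.67. Of 21 genes of purine and pyrimidine synthesis, 17 were lower, with a median of -0.26 and hpt1 lowest at -0.99. Of 23 genes of nitrogen use, 15 were lower, nearer to the share over all genes, with a median of -0.16. The transporter genes put4 and amt2 differed by -0.48 and -0.42, and gln1, for glutamine synthetase, by 0.39. The 22 autophagy genes all lay within 0.5 log2 units, 18 of them slightly higher, against 45.5% of all genes.

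Genes of the machinery of gene expression lay close to 0. All 111 genes of cytosolic ribosomal proteins lay within 0.5 log2 units, as did 89.5% of all genes, from -0.21 to 0.33, with a median of 0.00. So did all 35 genes of the mitochondrial ribosome, all 29 translation genes, all 74 splicing genes and all 27 heat shock and chaperone genes. Of 31 proteasome genes, 30 lay within that window, and of 43 ribosome biogenesis genes, 42. Of 44 genes of RNA polymerase II and general transcription, 33 were lower by any amount (54.5% over all genes), with a median of -0.14. Glycolysis showed a like pattern, with 16 of 17 genes lower and 16 of 17 within the window.

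Among genes of no list, arp1, for a dynactin subunit, read 10.38 at 3 h and 7.85 at 1.5 h, at least 2.53 higher. The kinase gene ppk33 read 12.42 at 3 h and 10.02 at 1.5 h, aif1 13.03 at 3 h and 11.26 at 1.5 h, and hem3, for a step of haem synthesis, 11.68 at 3 h and 10.37 at 1.5 h. Lower at 3 h were pof14, for an F-box protein, at 11.27 at 3 h and 12.58 at 1.5 h, and rpc11, for a subunit of RNA polymerase III, at 9.28 at 3 h and 10.37 at 1.5 h. In ergosterol synthesis, erg32, for a sterol desaturase, read 11.22 at 3 h and 12.61 at 1.5 h, while the list's median was -0.11.

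The deletion pair is the only other measurement of the same time step. In it 2.36% of genes were higher at 3 h by 2-fold or more and 0.473% were lower. Of the 69 genes higher in wild type, 32 were also at least 2-fold higher in the deletion, and of the 9 lower, 3 were also lower: adg1, fio1 and str3. The 34 meiosis and sporulation genes had a median difference of 2.67 in wild type and 1.43 in the deletion, with 25 at least 2-fold higher in both. The 14 mating genes had a median of 1.46 in wild type and 0.21 in the deletion, with 1, tht1, at least 2-fold higher in both. The genes were chosen on the wild-type difference, so a smaller value in the deletion is partly fixed by that choice, and the difference between genotypes was not tested.

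The levels of map2, isp3, sdh2 and rec8, picked by hand from the genes higher in wild type at 3 h, are given as examples. The map2 transcript read 13.78 and 11.97 in wild type at 3 h and 1.5 h, against 14.67 and 14.38 in the deletion. The isp3 transcript read 13.11 and 7.99 in wild type, against 14.51 and 14.05 in the deletion at the same times. The sdh2 transcript read 13.57 and 11.23 in wild type, against 13.30 and 12.23 in the deletion. The rec8 transcript read 11.70 and 8.44 in wild type, against 11.96 and 10.04 in the deletion. At 1.5 h the deletion array read higher than wild type for all 4 genes, and at 3 h it read higher for map2, isp3 and rec8 and lower for sdh2. The choice favours genes low in wild type at 1.5 h, so a higher deletion value at that time is partly fixed by it.

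**Figure D5:**
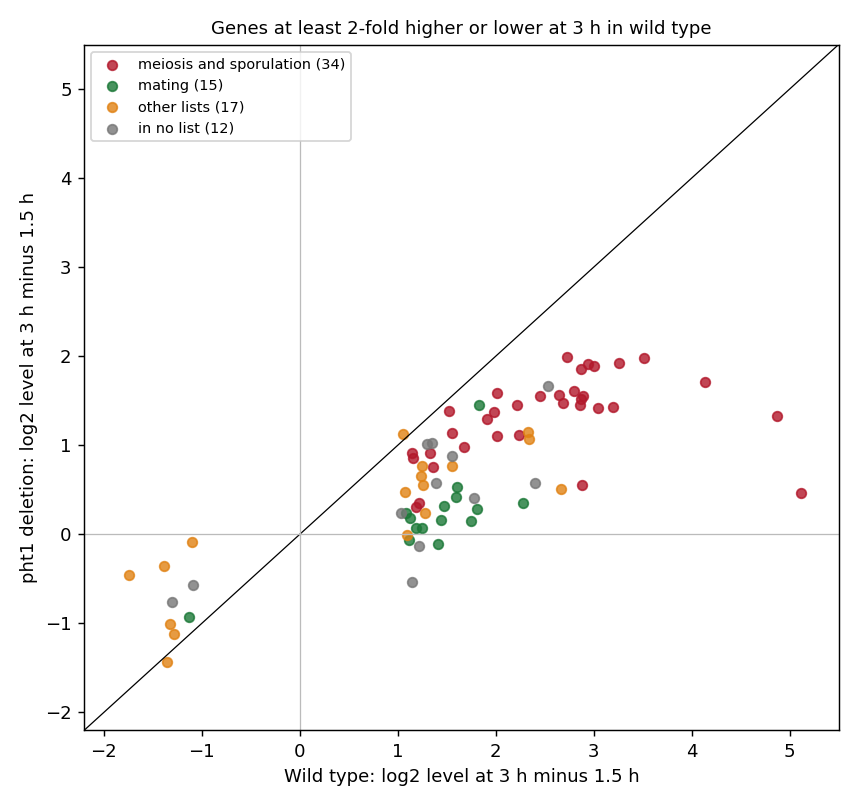
Difference between times (3 h minus 1.5 h, log2 units) in wild type (horizontal axis) and in the deletion (vertical axis) for the 69 genes higher and the 9 lower by 2-fold or more in wild type, coloured by class, with the line of equal differences. The higher genes have a median of 1.75 in wild type and 0.92 in the deletion, and they were chosen on the wild-type value.

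An additive fit of time and genotype on all 4 arrays with limma, 1 residual degree of freedom per gene, called 0 of 2314 genes (0%) in either direction at a Benjamini-Hochberg adjusted p of 0.05. The smallest adjusted p was 0.0691 in this limma fit, and 263 genes higher and 264 lower at 3 h had an unadjusted p under 0.05. Re-equalizing the 4 arrays by quantiles before the fit called 74 genes higher and 44 lower, and dropping the floor called 54 higher and 15 lower.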

How the data were processed

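The authors deposited log2 values, which the submitters' processing notes credit to RMA with a version not given in the sources used here. Of 4999 probe sets, 2917 had 1 gene symbol, 20 had several and 2062 were unnamed here. By gene identifier, 2914 matched RefSeq (names only) and 110 symbols were updated. Where a gene had more than 1 set (14 genes), the brightest on average was kept.

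Differences were taken as 3 h minus 1.5 h. The 44 gene lists and the genes described were chosen with earlier results of these data known, and 4 matches through an older name were left out. Named genes are the 15 highest and 15 lowest, the members of the break and cohesin lists, the 8 entry regulators and the 5 of each other list with the largest differences, and the markers; others, among them those named for holding their level, were added after their values were seen. The additive fit used limma 3.58.1 in R 4.3.3 with variances following intensity, on genes past the floor on 2 or more arrays, and was tested on simulated data. Its p-values rest on the spread of 4 arrays, which may be technical. Alternatives changed the scaling, the floor, the probe set choice, the fold and the variance model. A planned promoter motif count was not run, since no sequences were used here. Tables were handled with pandas 2.3.3 and numpy 2.4.6 in Python 3.11.15, and plots drawn with matplotlib 3.10.9.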

Additional observations from a re-analysis of the deposited data

Results flagged for a closer look

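For 6 of the genes named by rule, the wild-type and the deletion differences had opposite signs. Each difference exceeded the spread of a difference between arrays, 0.227. That bar is low and was itself taken from the gaps between the genotypes over all genes above the floor. The genes hht1 and meu34 passed it narrowly. The named genes are a chosen set and the share over all genes was not counted, so the 6 are a description only. The difference between the genotypes was not tested. The agn2 transcript, a glucanase gene of spore release, differed by -0.50 in wild type and 0.63 in the deletion, a gap of -1.13. The replication licensing gene cdc18 differed by -0.49 in wild type and 0.59 in the deletion, a gap of -1.08. The histone H3 gene hht1 differed by -0.26 in wild type and 0.26 in the deletion, a gap of -0.51. The meu34 transcript differed by -0.24 in wild type and 0.63 in the deletion, a gap of -0.87. The ribosomal protein gene rps1401 differed by 0.33 in wild type and -1.17 in the deletion, a gap of 1.50. The metallothionein gene zym1 differed by -0.32 in wild type and 0.36 in the deletion, a gap of -0.68.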

How the results depend on the processing

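No paired analysis was possible because each group holds 1 array and the labels give no replicate numbers. At 1.5-fold, 119 genes were higher and 61 lower, and at 3-fold 38 and 1. With 2-fold kept, no floor gave 84 higher and 10 lower, a floor at the array median 48 and 6, and the other scalings and probe set choices 69 to 70 and 9. The additive fit called 54 higher and 15 lower with no floor, and 74 and 44 after quantile normalization. With a floor at the array median, or with variances not following intensity, it called 0 in either direction. Without a floor, list medians moved to 1.53 for double-strand break formation, 2.45 for Mmi1-regulated transcripts, 0.28 for the spore wall and 0.34 for genes named meu. With a floor at the array median they moved to 0.68 for strand exchange over 10 genes and 2.89 for meu over 1 gene. Of 265 single genes under 4 alternatives, gal10 passed 2-fold (0.99 as reported, 1.01 with the median subtracted and with the lowess removed), and str2 turned sign (-0.01, against 0.01, 0.01 and 0.00). The other genes kept their direction and their side of 2-fold. Low signal limits genes near the bottom of the array.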

Other observations

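Among the 2082 probe sets with no single gene name, 1540 lay above the floor. Of these, 22 (1.43%) were higher at 3 h by 2-fold or more and 14 (0.909%) were lower.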
